A study of Mus musculus with 10 samples.

Results

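Fatty acids are the main fuel of the adult heart, and 40 genes that act in their uptake, activation, mitochondrial oxidation and storage were followed in heart muscle cells sorted 5 days after a myocardial infarction. The 40 genes are the rows of the count table that carry the symbols of a gene list, 40 of 56832 rows in all, and each of them had enough counts to be tested. The cells came from Sprr1a-GFP mice, a reporter strain named for the stress-induced gene Sprr1a, and all titles carry the tag Hetz. Infarction was made at 12 weeks of age in all 5 mice. Each mouse gave 1 library of GFP+ cells, labelled as cardiomyocytes of the border zone, and 1 of GFP- cells, labelled as cardiomyocytes of the remote zone. The 10 libraries thus form 5 pairs, and no uninjured heart was analysed here. Mice 17C1 and 17C2 form the 17C series and mice 21A4, 21A5 and 21A7 the 21A series; their titles are worded differently, so values are given within each series too. The title of each GFP+ library joins a DAPI-negative and a DAPI-positive sample, while each GFP- title names a DAPI-negative sample alone. DAPI enters cells with leaky membranes, and this difference in sorting and the difference in zone cannot be told apart.

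A long-chain fatty acid is taken up through CD36 and fatty acid transport proteins, joined to coenzyme A by an acyl-CoA synthetase, and carried into the mitochondrion as a carnitine ester. There the acyl-CoA is shortened in cycles of dehydrogenation, hydration, a further dehydrogenation and thiolysis, while auxiliary enzymes deal with double bonds already present in the chain. Malonyl-CoA holds back entry at carnitine palmitoyltransferase, pyruvate dehydrogenase kinases hold back the use of glucose, and fatty acids not burnt at once are kept as triglyceride in lipid droplets. Many of these genes are under nuclear receptors of the PPAR and ERR families, and an adult heart expresses them at higher levels than a fetal one.

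Total counts were 12244373 to 38879965 per library, and part of them came from mitochondrially encoded genes. In the 17C mice that share was lower in GFP+ cells, 47.7% to 49.3%, against 58.1% to 61.9% in GFP- cells. It was higher in GFP+ cells of all 3 of the 21A mice, 35.7% to 91.2%, against 9.20% to 35.7% in GFP- cells. Sprr1a, which names the reporter, stood at 235 ± 70.5 CPM in GFP+ and 3.44 ± 3.43 CPM in GFP- libraries (SD, n = 5; log2 fold change 6.64 ± 0.75, SE, adjusted p = 0.0201). CPM here are counts scaled to library size with TMM factors (edgeR's cpm), and adjusted p is that of edgeR's quasi-likelihood test with the mouse as a block, over 12115 genes. The libraries labelled cardiomyocyte all held transcripts of 18 adult sarcomere genes, summing to 13906 to 51723 CPM in GFP+ and 4916 to 58614 CPM in GFP- libraries. The lowest of these sums was that of the GFP- library of 21A7. Transcripts of 8 fibroblast genes summed to 264 to 315 CPM in GFP+ and 130 to 283 CPM in GFP- libraries of the 17C mice. In the 21A mice they summed to 1756 to 5123 CPM in GFP+ libraries and 6507 to 12064 CPM in GFP- libraries. The highest of these, 12064 CPM, was in the GFP- library of 21A7, where it exceeded the sum of the 18 sarcomere genes, 4916 CPM. Macrophage genes (8) summed to 72.6 to 316 CPM in GFP+ and 312 to 688 CPM in GFP- libraries of the 21A mice, and to at most 41.5 CPM in GFP+ and 31.6 CPM in GFP- libraries of the 17C mice. Endothelial genes (8) summed to 140 to 303 CPM in GFP+ and 495 to 555 CPM in GFP- libraries of the 21A mice, and to at most 73.5 CPM in GFP+ and 98.3 CPM in GFP- libraries of the 17C mice. Adipocyte genes, which would share the storage and lipolysis genes, were at 0 in every GFP+ library for 6 of 6 genes and summed to at most 0.752 CPM in GFP- libraries. The 5 mesothelial genes summed to 76.6 to 104 CPM in GFP+ and 0.718 to 9.999 CPM in GFP- libraries of the 17C mice. In the 21A mice they summed to 54.4 to 249 CPM in GFP+ and 19.98 to 133 CPM in GFP- libraries. Their sum was higher in the GFP+ than in the GFP- library of each of the 5 mice. At an adjusted p under 0.05, 5 of these genes were higher in GFP+ cells of the 17C mice, 4 in the 21A mice and 0 over all 5 mice. The part of these differences in composition and in mitochondrial share in the results was not tested. In sorted bulk material, fewer cardiomyocytes in a library and less RNA of a gene in each cardiomyocyte cannot be told apart.

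Over all 5 mice, 37 of the 40 fatty acid genes had a log2 fold change below 0 between GFP+ and GFP- cells. Their median was −0.67, against −0.04 for all 12115 genes tested. None of the 40 passed an adjusted p of 0.05, in a comparison where 104 genes (0.858%) passed. At an unadjusted p under 0.05, 10 were lower in GFP+ cells, against a background of 7.59%. These 10 were Lpl, Acot1, Acot2, Cpt1a, Etfdh, Ech1, Eci2, Plin5, Lipe and Ucp3. The count was 25 without 21A7, 5 without 17C1, 4 without 21A4 and 4 without 17C2. In these fits 1784, 2059, 1183 and 1452 of all genes had such a p in either direction. Dgat1 alone was higher at that level (background 7.74%), with −0.05 when library totals were the scale, which moved the median of all genes to −1.15. DESeq2 called 6 members lower (background 3.6%), namely Acot1, Acot2, Cpt1a, Ech1, Plin5 and Ucp3. The voom method with quality weights called 6 lower (background 4.84%), with Ucp2 in place of Ech1, and called Dgat1 higher. The direction was the same in 5 of 5 mice for 3 lower members, Acot1, Acot2 and Cpt1a (background 8.02%), and for 1 higher member, Dgat1 (background 9.14%). Neither count was a larger share of the 40 than its background. Acot1 was the only member whose GFP+ libraries all lay below its GFP- libraries (background 0.916%).

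**Figure D1:**
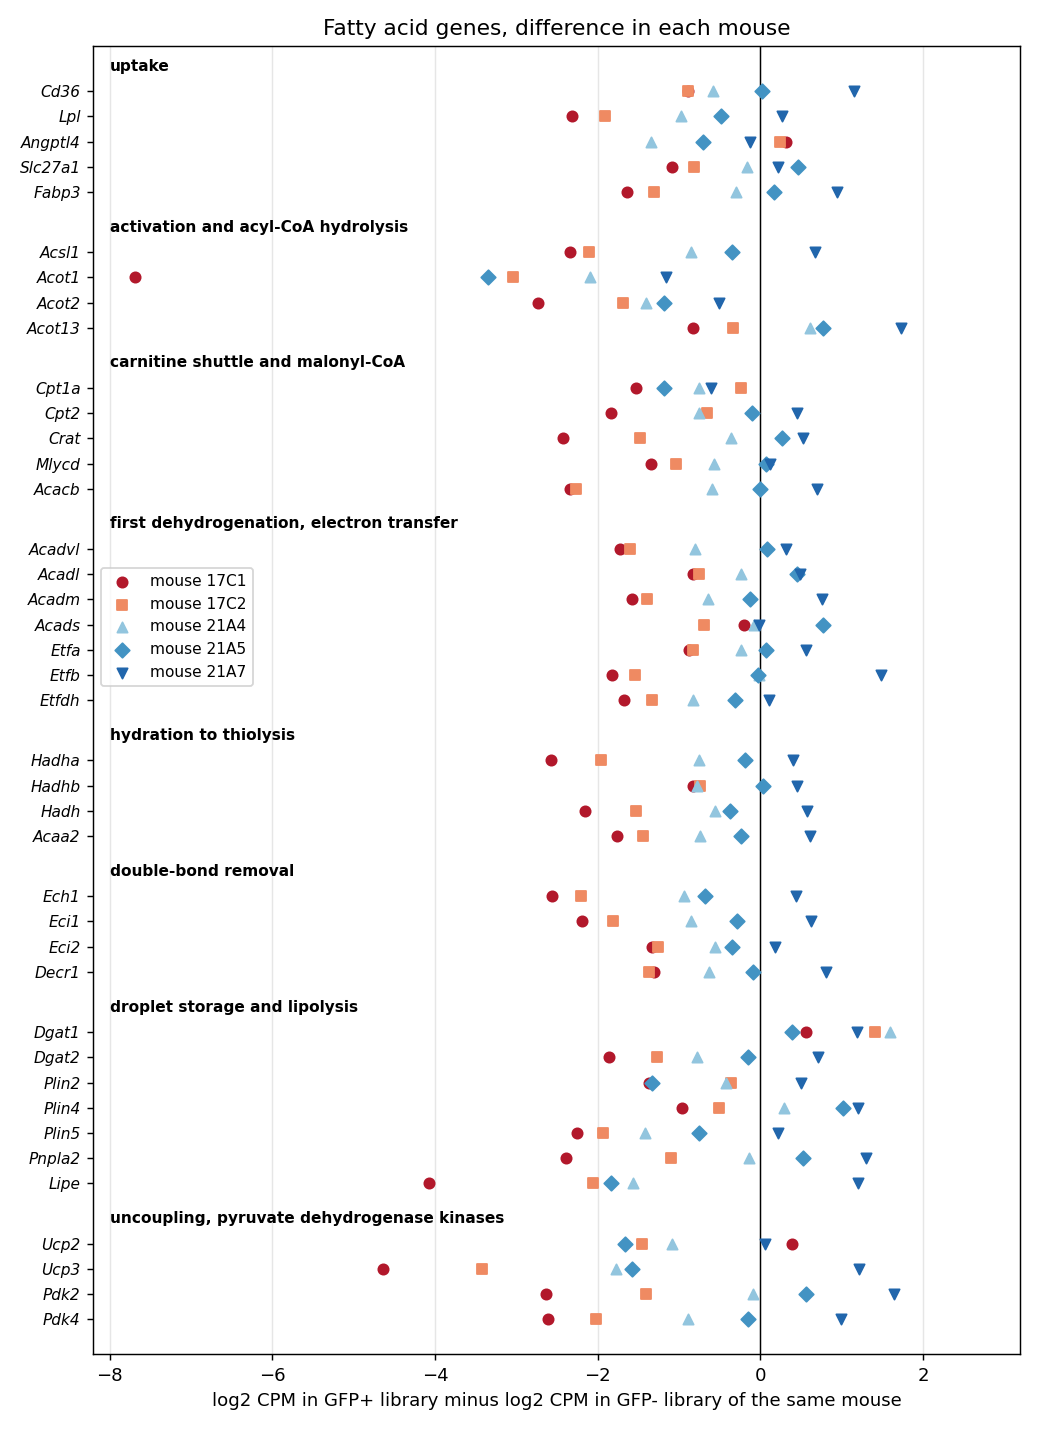
Difference in log2 CPM between the GFP+ and the GFP- library of each mouse for the 40 fatty acid genes, grouped by step. Red symbols are the 17C mice and blue symbols the 21A mice. Most red symbols lie left of 0 and, on this TMM scale, the symbols of 21A7 lie right of 0 for 35 genes. The value of Acot1 in 17C1 depends on the prior count of 2, since its GFP+ library held 0 counts.

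The mice did not behave alike. Of the 40 genes, 32 fell in GFP+ cells of the 17C mice and 0 rose, where 8.1% of all genes fell and 6.55% rose. Other genes of the working heart muscle cell fell in these mice too, with 44 of 51 nuclear genes of the respiratory chain, 13 of 18 of the TCA cycle, 11 of 18 adult sarcomere genes and 8 of 8 cardiomyocyte markers. The median log2 fold change of the 40 genes there was −1.53, against 0.00 for all genes. In the 21A mice 2 of the 40, Acot2 and Cpt1a, fell and 0 rose, where 4.18% of all genes fell and 2.72% rose, and the median was −0.13. Members with a lower level in the GFP+ library numbered 37 (17C1), 38 (17C2), 37 (21A4), 24 (21A5) and 5 (21A7). These levels rest on the TMM factors, which were 0.241 for the GFP+ and 3.31 for the GFP- library of 21A7. With library totals as the scale, all 40 had a fold change below 0 in the 21A mice, where the median of all genes was −2.02. The effect itself differed between the series for 13 members, all of them lower in the 17C than in the 21A mice (background 3.57%), and for 0 in the other direction (background 4.04%). That count of 13 was 0 without 21A5 and 8 without 21A4 or without 21A7, where 1, 158 and 228 of all genes were lower. Without 17C1 or 17C2 only 1 mouse of that series is left, and the median difference of the 40 was then −1.30 or −1.69. The count was also 0 without the mouse block, with library totals as the scale and with sarcomere genes as the scale. In these fits 0, 0 and 6 of all genes were lower. The library totals and the sarcomere scale moved the median of all genes in this difference to 2.14 and 1.89. The 2 calls of the 21A mice became 0 without the block, without 21A4 or without 21A5, and 8 without 21A7. The same fits called 0, 0, 18 and 1004 of all genes lower, against 507 with the block and all 3 mice. With 2 mice, the 17C fit leaves 1 residual degree of freedom per gene, and its p-values rest mostly on the spread that edgeR borrows across all genes. The same holds for its SE values, so both say little about the spread between the 2 mice. Below, the values of a gene in the 5 libraries of a group follow the order 17C1, 17C2, 21A4, 21A5 and 21A7, and a fold change is on the log2 scale.

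Uptake genes were led by Lpl, and 4 of the 5 fell in the 17C mice. Lpl encodes lipoprotein lipase, which frees fatty acids from circulating triglyceride. It had 187, 206, 477, 438 and 171 CPM in GFP+ libraries, against 934, 775, 934, 609.5 and 142 CPM in GFP- libraries. The groups overlapped only through 21A7, whose GFP- library lay below all GFP+ libraries. Over all 5 mice the change was −1.08 ± 0.43 (SE, adjusted p = 0.278), with −2.11 ± 0.28 (SE, adjusted p = 1.19e-11) in the 17C and −0.40 ± 0.33 (SE, adjusted p = 0.519) in the 21A mice. Angptl4 encodes a secreted inhibitor of that lipase and had 13.4, 8.09, 12.3, 14.8 and 58.3 CPM in GFP+ libraries, against 10.8, 6.85, 31.3, 24.3 and 63.5 CPM in GFP- libraries. Both libraries of 21A7 were the highest of their groups, and GFP+ was below GFP- in the 21A mice alone. The fold change of Angptl4 was 0.28 ± 0.47 (SE, adjusted p = 0.816) in the 17C and −0.72 ± 0.26 (SE, adjusted p = 0.133) in the 21A mice. Slc27a1, a fatty acid transport protein, had 27.7, 33.7, 28.9, 28.1 and 13.2 CPM in GFP+ libraries, against 58.98, 59.4, 32.4, 20.4 and 11.4 CPM in GFP- libraries. Its GFP+ libraries were lower in 17C1, 17C2 and 21A4 and higher in the other mice, with a change of −0.95 ± 0.29 (SE, adjusted p = 0.0109) in the 17C mice.

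The remaining uptake genes, Cd36 and Fabp3, are the scavenger receptor that takes up fatty acids and the binding protein that carries them through the cytosol. Cd36 ranged over 141 to 229 CPM in GFP+ libraries, against 63.3 to 423 CPM in GFP- libraries. Fabp3 ranged over 186 to 652 CPM in GFP+ libraries, against 96.7 to 1728 CPM in GFP- libraries. In the 17C mice both fell, with fold changes of −0.88 ± 0.28 (SE, adjusted p = 0.0138) for Cd36 and −1.47 ± 0.27 (SE, adjusted p = 2.91e-06) for Fabp3, while in the 21A mice the values were 0.19 ± 0.35 (SE, adjusted p = 0.79) and 0.27 ± 0.33 (SE, adjusted p = 0.678). Per kilobase of exon, Fabp3 had the highest level of all 40 members, 616 CPM per kb in GFP+ and 1107 in GFP- cells. That figure is uncertain, since 37.3% of the 50-base windows of its exons also occur in other genes, 29.2% in the pseudogene Fabp3-ps1. Cpt1a, Acot1, Lipe and Dgat1 were the 4 lowest per kilobase in GFP- cells.

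Activation and hydrolysis of acyl-CoA held Acot1, the member with the lowest fold change over all 5 mice. Acot1 and Acot2 are neighbouring genes for the cytosolic and the mitochondrial long-chain acyl-CoA thioesterase, which release the free fatty acid from coenzyme A. Their coding sequences share a run of 273 bases without a difference. The run starts at base 887 of the coding sequence of Acot1 and base 1010 of that of Acot2. Its opening 90 bases, on the coding strand, are shown because a read from them alone could belong to either gene.
Acot1 and Acot2 on chr12, shared coding run: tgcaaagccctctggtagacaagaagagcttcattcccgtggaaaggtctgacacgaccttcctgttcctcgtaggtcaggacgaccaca
In all, 43.6% of the 50-base coding windows of Acot1 and 40.2% of those of Acot2 occur in the other gene (build GRCm38), and how reads with several matches were counted is not given in the sources used here. Whether the counts of Acot1 and Acot2 share reads was not tested.

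Acot2 had 12.1, 13.2, 17.7, 10.01 and 4.91 CPM in GFP+ libraries, against 80.5, 42.8, 46.8, 22.9 and 7.03 CPM in GFP- libraries. Each mouse was lower in GFP+ cells, although the groups overlapped through 21A7. The change was −1.51 ± 0.32 (SE, adjusted p = 0.0776) over all 5 mice, −2.21 ± 0.31 (SE, adjusted p = 9.78e-11) in the 17C and −1.06 ± 0.26 (SE, adjusted p = 0.0427) in the 21A mice. Acot1 had 0, 0.857, 1.35, 0.321 and 1.17 CPM in GFP+ libraries, against 16.7, 7.64, 6.01, 4.03 and 2.73 CPM in GFP- libraries. The highest GFP+ library, of 21A4, lay below the lowest GFP- library, of 21A7. The change was −3.19 ± 0.85 (SE, adjusted p = 0.141) over all 5 mice, −4.76 ± 0.76 (SE, adjusted p = 2.39e-08) in the 17C and −2.30 ± 0.62 (SE, adjusted p = 0.0614) in the 21A mice. Acot1 was a low gene, with 0 counts in the GFP+ library of 17C1. Acsl1, the main long-chain acyl-CoA synthetase of the heart, had 47.3, 55.2, 119, 85.8 and 37.2 CPM in GFP+ libraries, against 239, 237, 214, 109 and 23.2 CPM in GFP- libraries. GFP+ was lower in every mouse but 21A7. It changed by −2.21 ± 0.28 (SE, adjusted p = 3.66e-13) in the 17C mice, with −0.18 ± 0.31 (SE, adjusted p = 0.776) in the 21A mice and a difference between the series of −2.04 ± 0.46 (SE, adjusted p = 0.0341). Acot13, a small thioesterase of mitochondria, had 78.3, 101, 67.1, 73.2 and 21.8 CPM in GFP+ libraries, against 139, 128, 43.8, 42.7 and 6.51 CPM in GFP- libraries. It was lower in GFP+ cells in both 17C mice and higher in all 3 of the 21A mice. Neither series passed on its own, with −0.58 ± 0.27 (SE, adjusted p = 0.153) and 1.03 ± 0.26 (SE, adjusted p = 0.0512), but the difference between them did, at −1.61 ± 0.41 (SE, adjusted p = 0.043).

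**Figure D2:**
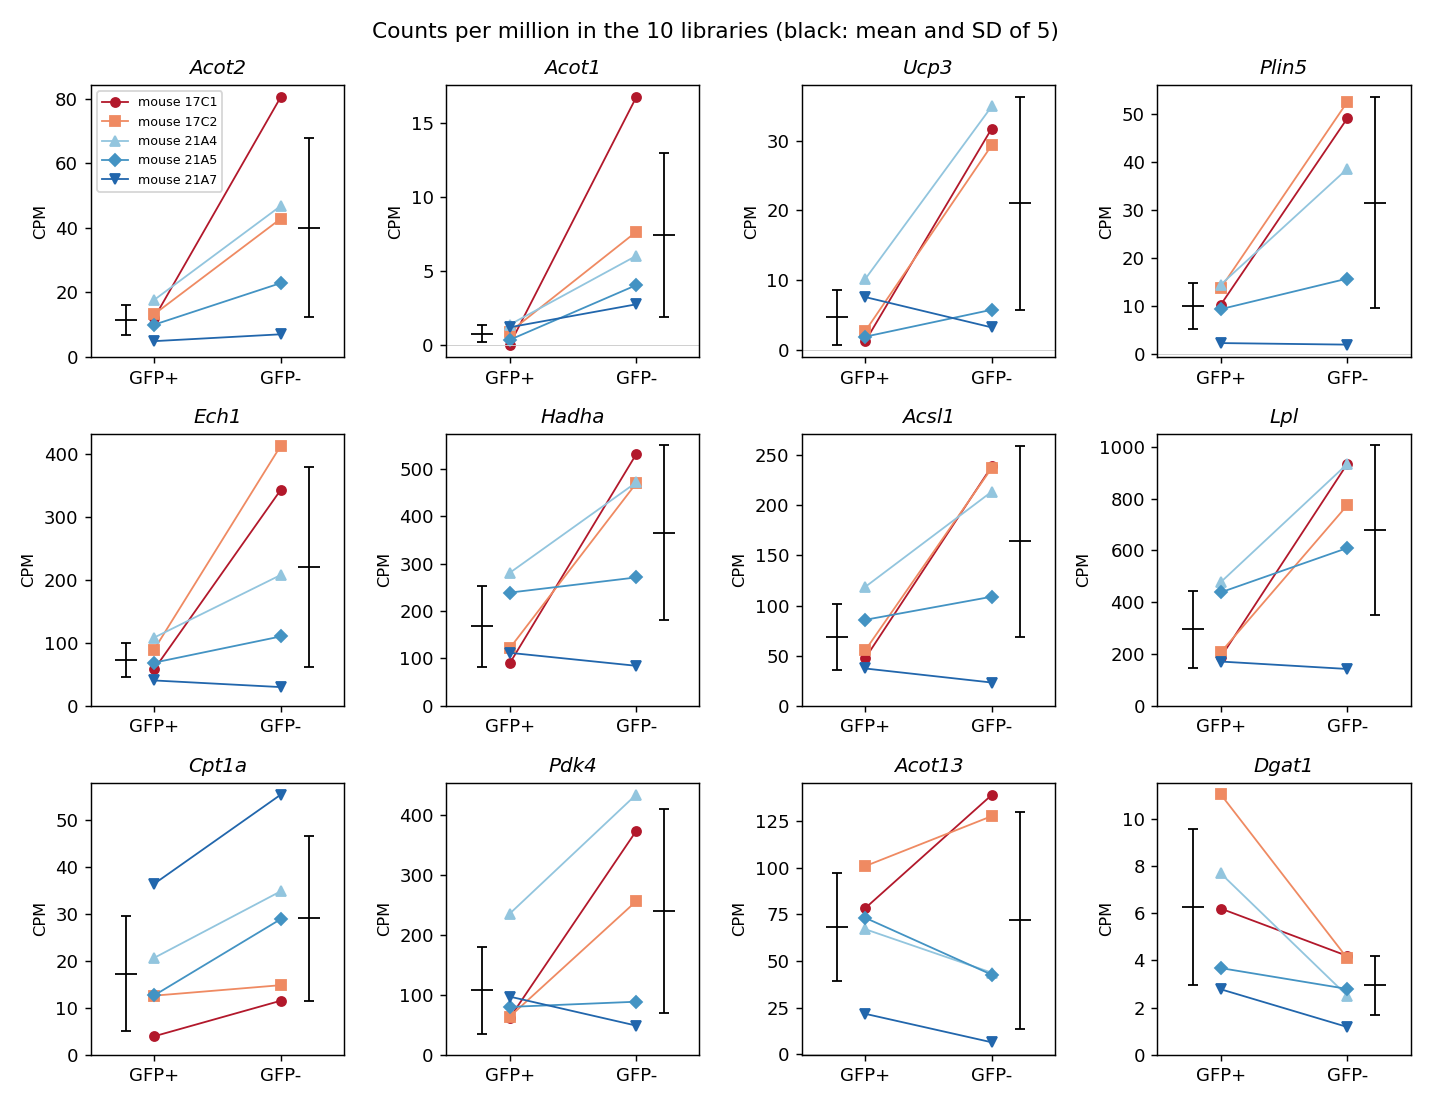
CPM of 12 fatty acid genes in the 10 libraries, GFP+ on the left of each panel and GFP- on the right. Lines join the libraries of 1 mouse, and black bars are the mean and SD of 5 libraries. Acot2, Acot1 and Cpt1a were lower and Dgat1 higher in GFP+ in all 5 mice (the fold change of Dgat1 was −0.05 with library totals, where the median of all genes was −1.15). Over all genes, 8.02% were lower and 9.14% higher in all 5 mice. The lines of 21A7 slope against those of the 17C mice for Ucp3, Plin5, Ech1, Hadha, Acsl1, Lpl, Pdk4 and Acot13.

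Carnitine shuttle and malonyl-CoA genes fell in the 17C mice for 4 of 5 members, and Cpt1a fell in the 21A mice. Cpt1a encodes the liver form of carnitine palmitoyltransferase 1, the enzyme at which malonyl-CoA controls entry into oxidation. It had 3.91, 12.6, 20.6, 12.6 and 36.4 CPM in GFP+ libraries, against 11.5, 14.8, 34.8, 28.9 and 55.4 CPM in GFP- libraries. Each mouse was lower in GFP+ cells, and 21A7 was the highest mouse in both groups. The groups overlapped with and without that mouse. The change was −0.86 ± 0.24 (SE, adjusted p = 0.154) over all 5 mice, −0.86 ± 0.47 (SE, adjusted p = 0.252) in the 17C and −0.85 ± 0.21 (SE, adjusted p = 0.0481) in the 21A mice. The counts of the muscle form, Cpt1b, were too low to test, at 3 to 30 in each library. In the annotation of build GRCm38, 81.4% of the exon bases of Cpt1b are covered by a second gene model, Gm44502, which had 0 counts in each library. How reads from shared exons were counted is not given in the sources used here. The low counts therefore cannot be read as low expression of Cpt1b. Crat, the acetyltransferase that buffers acetyl-CoA as acetylcarnitine, had 26.4, 45.1, 87.9, 92.5 and 31.2 CPM in GFP+ libraries, against 142, 126, 113, 76.7 and 21.6 CPM in GFP- libraries. It was lower in GFP+ cells in 17C1, 17C2 and 21A4 and higher in 21A5 and 21A7. It changed by −1.94 ± 0.29 (SE, adjusted p = 1.05e-09) in the 17C mice, and the difference between the series was −2.09 ± 0.42 (SE, adjusted p = 0.027).

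Acacb makes malonyl-CoA at the outer mitochondrial membrane and Mlycd breaks it down, so the pair act against each other on Cpt1. Acacb had 41.6, 41.4, 106, 96.01 and 27.7 CPM in GFP+ libraries, against 210.4, 200.1, 161, 95.8 and 17.03 CPM in GFP- libraries. Mlycd had 22.6, 24.9, 27.9, 16.02 and 6.83 CPM in GFP+ libraries, against 57.5, 51.4, 41.4, 15.3 and 6.27 CPM in GFP- libraries. Both were lower in GFP+ cells in 17C1, 17C2 and 21A4 and within 5 CPM of the GFP- level in 21A5. Acacb changed by −2.30 ± 0.28 (SE, adjusted p = 4.82e-14) in the 17C mice, with 0.03 ± 0.28 (SE, adjusted p = 0.967) in the 21A mice and a difference of −2.33 ± 0.42 (SE, adjusted p = 0.0234). Mlycd changed by −1.19 ± 0.29 (SE, adjusted p = 0.000882) in the 17C mice, with −0.13 ± 0.24 (SE, adjusted p = 0.786) in the 21A mice, and its difference of −1.06 ± 0.35 (SE, adjusted p = 0.0963) did not pass. Cpt2, the inner-membrane carnitine palmitoyltransferase, ranged over 25.7 to 40.2 CPM in GFP+ libraries, against 18.7 to 105 CPM in GFP- libraries, and changed by −1.24 ± 0.29 (SE, adjusted p = 0.000365) in the 17C mice.

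The acyl-CoA dehydrogenases and their electron acceptors fell in the 17C mice for 6 of 7 members, and 0 of the 7 passed in the 21A mice. Etfdh, which passes electrons from the electron transfer flavoprotein to ubiquinone, had 59.8, 58.8, 69.9, 67.2 and 28.5 CPM in GFP+ libraries, against 191, 148, 124, 83.6 and 26.4 CPM in GFP- libraries. Its groups overlapped only through the GFP- library of 21A7. The change was −0.81 ± 0.30 (SE, adjusted p = 0.259) over all 5 mice and −1.50 ± 0.28 (SE, adjusted p = 2.05e-06) in the 17C mice. Acadvl, the very-long-chain acyl-CoA dehydrogenase, had 66.8, 69.8, 81.04, 91.005 and 31.7 CPM in GFP+ libraries, against 220.4, 213, 141, 85.9 and 25.5 CPM in GFP- libraries. It was lower in GFP+ cells in 17C1, 17C2 and 21A4 and a little higher in 21A5 and 21A7. It changed by −1.66 ± 0.27 (SE, adjusted p = 7.49e-08) in the 17C mice, and the difference between the series was −1.53 ± 0.40 (SE, adjusted p = 0.0479). Exons of Dvl2 cover 42.9% of the exon bases of Acadvl, and the library kit does not mark strand, so its counts are uncertain. Acadm, the medium-chain dehydrogenase, had 115, 123, 155, 138 and 53.8 CPM in GFP+ libraries, against 343, 323, 242, 151 and 31.8 CPM in GFP- libraries. Only 21A7 was higher in GFP+ cells, and the change in the 17C mice was −1.48 ± 0.28 (SE, adjusted p = 3.85e-06).

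Of the other 4 genes of that step, the long-chain dehydrogenase gene Acadl ranged over 77.8 to 265 CPM in GFP+ libraries, against 55.5 to 468 CPM in GFP- libraries, and the flavoprotein subunit gene Etfa over 27.2 to 77.1 CPM in GFP+ libraries, against 18.5 to 142 CPM in GFP- libraries. Both fell in the 17C mice, with fold changes of −0.79 ± 0.28 (SE, adjusted p = 0.0333) for Acadl and −0.85 ± 0.27 (SE, adjusted p = 0.0164) for Etfa. The second flavoprotein subunit gene, Etfb, ranged over 3.52 to 7.37 CPM in GFP+ libraries, against 1.21 to 20.996 CPM in GFP- libraries and changed by −1.69 ± 0.43 (SE, adjusted p = 0.00141), but 58.2% of its exon bases are covered by other genes. The short-chain dehydrogenase gene Acads ranged over 17.8 to 61.6 CPM in GFP+ libraries, against 17.99 to 67.002 CPM in GFP- libraries and did not pass in any comparison, with −0.44 ± 0.28 (SE, adjusted p = 0.369) in the 17C and 0.23 ± 0.24 (SE, adjusted p = 0.606) in the 21A mice. Of the 4 acyl-CoA dehydrogenase genes, Acads had the value nearest 0 in the 17C mice.

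All 4 genes for hydration, the later dehydrogenation and thiolysis fell in the 17C mice. Hadha encodes the alpha subunit of the trifunctional protein, which carries the hydratase and a dehydrogenase for long chains. It had 89.5, 121, 281, 239 and 112 CPM in GFP+ libraries, against 531, 469.9, 472, 271 and 84.5 CPM in GFP- libraries. GFP+ was lower in every mouse but 21A7. The change was −2.26 ± 0.29 (SE, adjusted p = 7.3e-13) in the 17C mice, with −0.18 ± 0.30 (SE, adjusted p = 0.772) in the 21A mice and a difference of −2.08 ± 0.44 (SE, adjusted p = 0.0311). Hadhb, its partner with the thiolase activity, ranged over 37.6 to 113 CPM in GFP+ libraries, against 27.4 to 200.4 CPM in GFP- libraries. It changed by −0.78 ± 0.27 (SE, adjusted p = 0.0292) in the 17C mice, closer to 0 than that of Hadha, with the 2 changes not tested against each other. A gene model, Gm13910, shares 18.1% of the 50-base windows of Hadhb. Hadh, the medium- and short-chain hydroxyacyl-CoA dehydrogenase, had 57.2, 71.2, 73.8, 56.2 and 33.5 CPM in GFP+ libraries, against 254, 205, 109, 72.7 and 22.4 CPM in GFP- libraries. Acaa2, the thiolase that ends the cycle for shorter chains, had 93.8, 101, 110.5, 95.96 and 51.01 CPM in GFP+ libraries, against 319, 276, 184, 113 and 33.4 CPM in GFP- libraries. For both genes GFP+ was lower in every mouse but 21A7. In the 17C mice they changed by −1.83 ± 0.28 (SE, adjusted p = 2.89e-09) for Hadh and −1.60 ± 0.28 (SE, adjusted p = 3.86e-07) for Acaa2. The difference between the series was −1.71 ± 0.43 (SE, adjusted p = 0.0412) for Hadh and did not pass for Acaa2, at −1.48 ± 0.44 (SE, adjusted p = 0.0674).

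The 4 auxiliary genes for unsaturated chains all fell in the 17C mice as well. Ech1, the dienoyl-CoA isomerase, had 57.96, 89.5, 108, 68.6 and 40.3 CPM in GFP+ libraries, against 343, 413, 208, 110.3 and 29.8 CPM in GFP- libraries. Only 21A7 was higher in GFP+ cells, and its GFP- library was the only one to lie among the GFP+ libraries or below. Ech1 changed by −2.38 ± 0.29 (SE, adjusted p = 1.81e-14) in the 17C mice, with −1.20 ± 0.45 (SE, adjusted p = 0.26) over all 5 mice and a difference between the series of −1.98 ± 0.46 (SE, adjusted p = 0.0351). Eci1 and Eci2 encode enoyl-CoA isomerases. Eci1 had 23.2, 25.3, 23.8, 19.4 and 8.54 CPM in GFP+ libraries, against 106, 88.8, 42.9, 23.7 and 5.53 CPM in GFP- libraries. Eci2 had 14.7, 13.8, 12.8, 11.9 and 7.68 CPM in GFP+ libraries, against 37.1, 32.99, 18.99, 15.2 and 6.74 CPM in GFP- libraries. Both were lower in GFP+ cells in every mouse but 21A7. Eci1 changed by −1.996 ± 0.29 (SE, adjusted p = 6.53e-10) in the 17C mice with a difference of −1.80 ± 0.44 (SE, adjusted p = 0.0399), while Eci2 changed by −1.29 ± 0.34 (SE, adjusted p = 0.00182) with a difference of −1.04 ± 0.38 (SE, adjusted p = 0.119). Decr1, the dienoyl-CoA reductase, ranged over 25.5 to 55.3 CPM in GFP+ libraries, against 14.6 to 143 CPM in GFP- libraries and changed by −1.33 ± 0.28 (SE, adjusted p = 4.05e-05) in the 17C mice.

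Droplet genes were mixed, with 4 of 7 lower in the 17C mice and Dgat1 higher in GFP+ cells in 5 of 5 mice, relative to the bulk of genes. As many as 9.14% of all genes were higher in 5 of 5 mice. Dgat1 catalyses the last step of triglyceride synthesis and had 6.20, 11.05, 7.69, 3.67 and 2.77 CPM in GFP+ libraries, against 4.19, 4.09, 2.50, 2.79 and 1.17 CPM in GFP- libraries. GFP+ exceeded GFP- in each pair, although the groups overlapped. The change was 1.05 ± 0.35 (SE, adjusted p = 0.209) over all 5 mice, and it was −0.05 with library totals alone as the scale. Relative to the median of all genes these values were 1.09 with TMM factors and 1.10 with library totals. Dgat2, another enzyme for the same step, ranged over 8.004 to 35.9 CPM in GFP+ libraries, against 4.84 to 97.1 CPM in GFP- libraries and changed by −1.56 ± 0.29 (SE, adjusted p = 2.37e-06) in the 17C mice. Plin5 coats droplets in oxidative tissue and tethers them to mitochondria. It had 10.2, 13.7, 14.4, 9.32 and 2.24 CPM in GFP+ libraries, against 49.2, 52.6, 38.6, 15.7 and 1.92 CPM in GFP- libraries. The groups overlapped only through the GFP- library of 21A7. Its change was −1.28 ± 0.36 (SE, adjusted p = 0.154) over all 5 mice, −2.10 ± 0.32 (SE, adjusted p = 3.52e-09) in the 17C and −0.73 ± 0.33 (SE, adjusted p = 0.216) in the 21A mice. Plin4, a further droplet coat protein, had 21.4, 30.1, 60.4, 51.01 and 11.2 CPM in GFP+ libraries, against 41.8, 42.8, 49.3, 25.2 and 4.83 CPM in GFP- libraries. It was lower in GFP+ cells in both 17C mice and higher in all 3 of the 21A mice, and the difference was −1.57 ± 0.38 (SE, adjusted p = 0.0391). Plin2, a coat protein of many tissues, ranged over 10.8 to 87.9 CPM in GFP+ libraries, against 21.6 to 61.97 CPM in GFP- libraries and did not pass in either series.

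Lipolysis starts with Pnpla2, the adipose triglyceride lipase, and goes on with Lipe, the hormone-sensitive lipase. Pnpla2 had 37.1, 61.1, 94.1, 97.2 and 48.8 CPM in GFP+ libraries, against 194, 131, 103, 67.6 and 19.7 CPM in GFP- libraries. It was lower in GFP+ cells in 17C1, 17C2 and 21A4 and higher in 21A5 and 21A7, where the fold change of the 3 mice of the 21A series was 0.56 ± 0.29 (SE, adjusted p = 0.281). The change in the 17C mice was −1.73 ± 0.28 (SE, adjusted p = 5.88e-08) and the difference between the series −2.30 ± 0.52 (SE, adjusted p = 0.0341). Lipe had 0.544, 2.38, 4.92, 2.11 and 7.58 CPM in GFP+ libraries, against 10.4, 10.2, 14.7, 7.77 and 3.25 CPM in GFP- libraries. It was lower in GFP+ cells in every mouse but 21A7, with −3.002 ± 0.69 (SE, adjusted p = 0.000262) in the 17C mice and −1.67 ± 0.67 (SE, adjusted p = 0.29) over all 5 mice. Exons of another transcript cover 15.6% of the exon bases of Lipe.

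Uncoupling genes and pyruvate dehydrogenase kinases had a median difference between the series of −2.50, the lowest of the 8 steps. Ucp3, an uncoupling protein of muscle mitochondria that rises with fatty acid supply, had 1.20, 2.67, 10.2, 1.88 and 7.58 CPM in GFP+ libraries, against 31.8, 29.4, 34.9, 5.75 and 3.22 CPM in GFP- libraries. GFP- libraries of the 17C mice and of 21A4 stood far above the rest. The change in the 17C mice was −4.02 ± 0.46 (SE, adjusted p = 5.25e-16), with −2.07 ± 0.77 (SE, adjusted p = 0.258) over all 5 mice, and the difference between the series of −3.24 ± 0.90 (SE, adjusted p = 0.0572) did not pass. Ucp2, its widely expressed relative, had 12.2, 8.38, 25.8, 20.1 and 104 CPM in GFP+ libraries, against 9.27, 23.1, 54.7, 63.8 and 99.9 CPM in GFP- libraries. Both 21A7 libraries were the highest of their groups, and neither series passed, with −0.53 ± 0.44 (SE, adjusted p = 0.527) and −0.90 ± 0.33 (SE, adjusted p = 0.133). Pdk4, the kinase that shuts pyruvate dehydrogenase when fat is burnt, had 61.3, 63.4, 236, 79.8 and 97.1 CPM in GFP+ libraries, against 374, 257, 435, 88.5 and 48.6 CPM in GFP- libraries. Pdk2, the more constant kinase, had 38.7, 81.4, 107, 107 and 45.5 CPM in GFP+ libraries, against 240.1, 216, 113, 72.3 and 14.5 CPM in GFP- libraries. Both fell in the 17C mice, Pdk4 with −2.31 ± 0.28 (SE, adjusted p = 8.79e-14) and Pdk2 with −2.01 ± 0.28 (SE, adjusted p = 1.08e-10). Their values in the 21A mice were −0.02 ± 0.36 (SE) for Pdk4 and 0.70 ± 0.33 for Pdk2, neither of which passed. The difference between the series was −2.29 ± 0.54 (SE, adjusted p = 0.0367) for Pdk4 and −2.72 ± 0.56 (SE, adjusted p = 0.0286) for Pdk2, the largest of the 13.

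**Figure D3:**
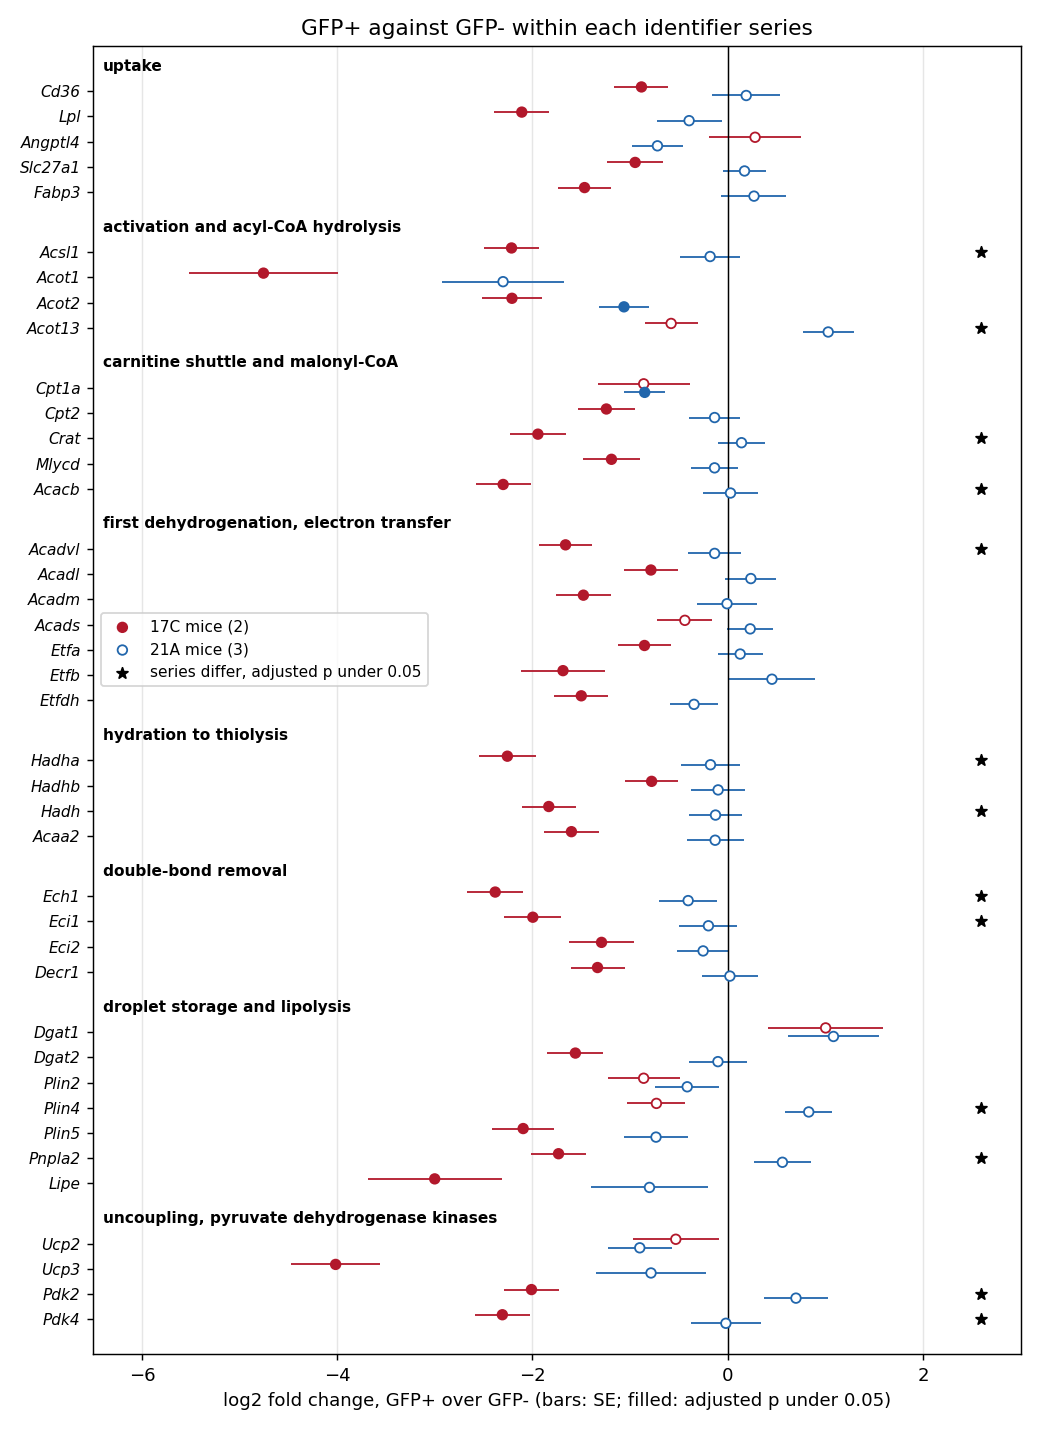
log2 fold change of GFP+ over GFP- cells for the 40 fatty acid genes in the 17C mice (red) and the 21A mice (blue), with the SE as bars and filled symbols for an adjusted p under 0.05. Stars mark the 13 genes whose effect differed between the series. Filled red symbols lie left of 0 for 32 genes, and filled blue symbols are those of Acot2 and Cpt1a.

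The gap between the series was not a matter of fatty acid genes alone. Of the 18 adult sarcomere genes 10 were likewise lower in the 17C than in the 21A mice, as were 35 of 51 nuclear genes of the respiratory chain, 6 of 18 genes of the TCA cycle and 6 of 8 cardiomyocyte markers (background 3.57%). The median difference of the sarcomere genes between GFP+ and GFP- was, on the log2 scale, −1.25 (17C1), −0.72 (17C2), 0.48 (21A4), 1.17 (21A5) and 1.69 (21A7). That of the 40 fatty acid genes was −1.74, −1.38, −0.69, −0.14 and 0.54 in the same mice. In each mouse the fatty acid genes thus stood below the sarcomere genes, with a median relative to them of −0.50, −0.66, −1.17, −1.30 and −1.15. The mice kept their order in both lists, from 17C1 as the lowest to 21A7 as the highest.

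Relative to the sarcomere genes of the same mouse, 26 of the 40 were lower in GFP+ cells in 5 of 5 mice (background 7.76%). Mouse by mouse, the number lower was 29 (17C1), 32 (17C2), 38 (21A4), 40 (21A5) and 39 (21A7). The median of all tested genes on this scale was 1.25, 0.70, −0.49, −1.18 and −1.71, so that in 21A7 the fatty acid genes stood above the median gene. The 26 were Lpl and Fabp3 of uptake, Acsl1, Acot1 and Acot2 of activation, and Crat, Mlycd and Acacb of the carnitine step. Acadvl, Acadm, Etfb, Etfdh, Hadha, Hadh, Acaa2, Ech1, Eci1, Eci2 and Decr1 were those of the oxidation cycle. Dgat2, Plin5, Pnpla2 and Lipe stood for the droplets, and Ucp3, Pdk2 and Pdk4 completed the set. Against other yardsticks the count was 17 for 8 cardiomyocyte markers (background 3.04%), 19 for the respiratory chain (background 4.51%) and 12 for the TCA cycle (background 4.06%). The median of the 40 relative to the cardiomyocyte markers was −0.06 (17C1), −0.17 (17C2), −0.65 (21A4), −0.84 (21A5) and −0.80 (21A7). In the 17C mice the 40 genes thus fell little further than these markers. In the same order, the median was −0.48, −0.46, −0.78, −0.66 and −0.36 against the respiratory chain. Against the TCA cycle it was −0.53, −0.56, −0.63, −0.56 and −0.06. These yardsticks were chosen after the values were known, and the counts have no test.

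A fit scaled to the sarcomere genes was also made for each comparison. Over all 5 mice 0 of the 40 and 0 of all genes passed it with edgeR, while 19 of the 40 and 935 of all genes had an unadjusted p under 0.05. The median was −0.94 for the 40 genes and −0.34 for all genes. On this scale 22 of the 40 fell in the 17C mice (background 1.76%), where the median of all genes moved to 0.86. In the 21A mice 26 fell (background 37.9%), where that median moved to −1.06. A change of scale adds nearly the same amount to every gene of a comparison, so these counts place the members against the sarcomere genes and not against the bulk of genes. For the difference between the series, this scale left 0 members lower in the 17C than in the 21A mice and put 3 higher, Angptl4, Cpt1a and Ucp2.

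**Figure D4:**
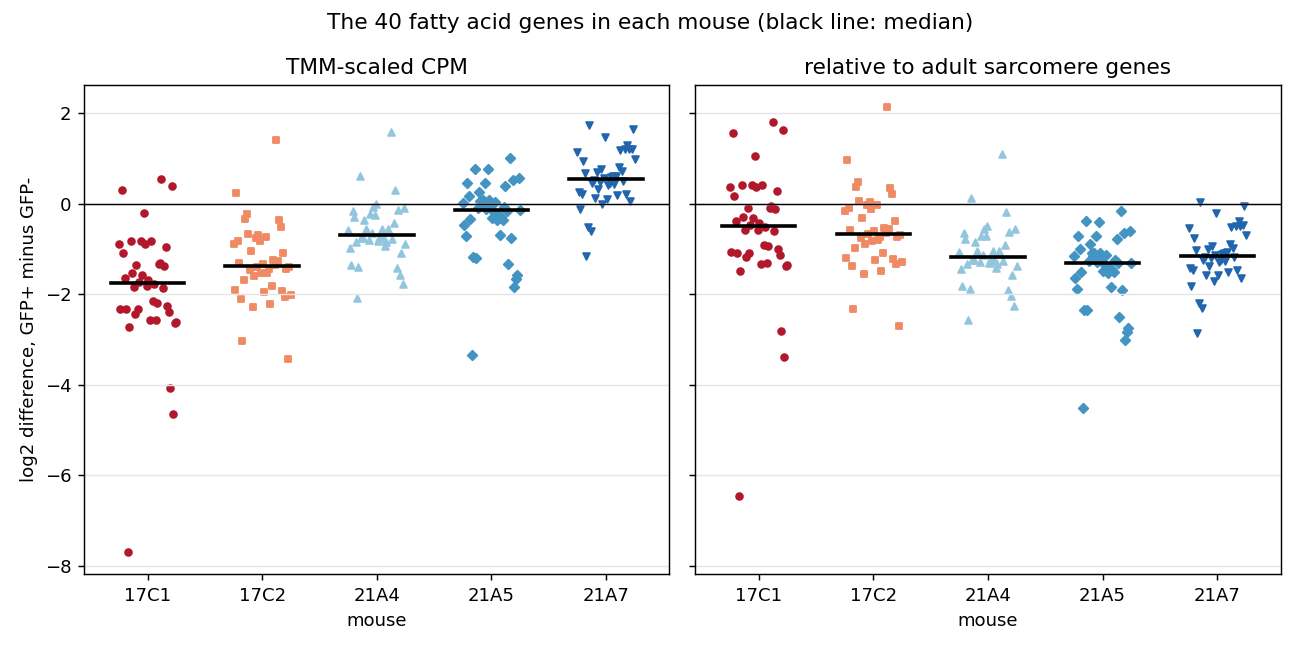
Difference in log2 CPM between GFP+ and GFP- libraries for the 40 fatty acid genes in each mouse, as measured (left) and after subtracting the median difference of 18 adult sarcomere genes of the same mouse (right). Black lines are medians. On the left the medians run between −1.74 in 17C1 and 0.54 in 21A7, and on the right they lie between −1.30 and −0.50.

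**Figure D5:**
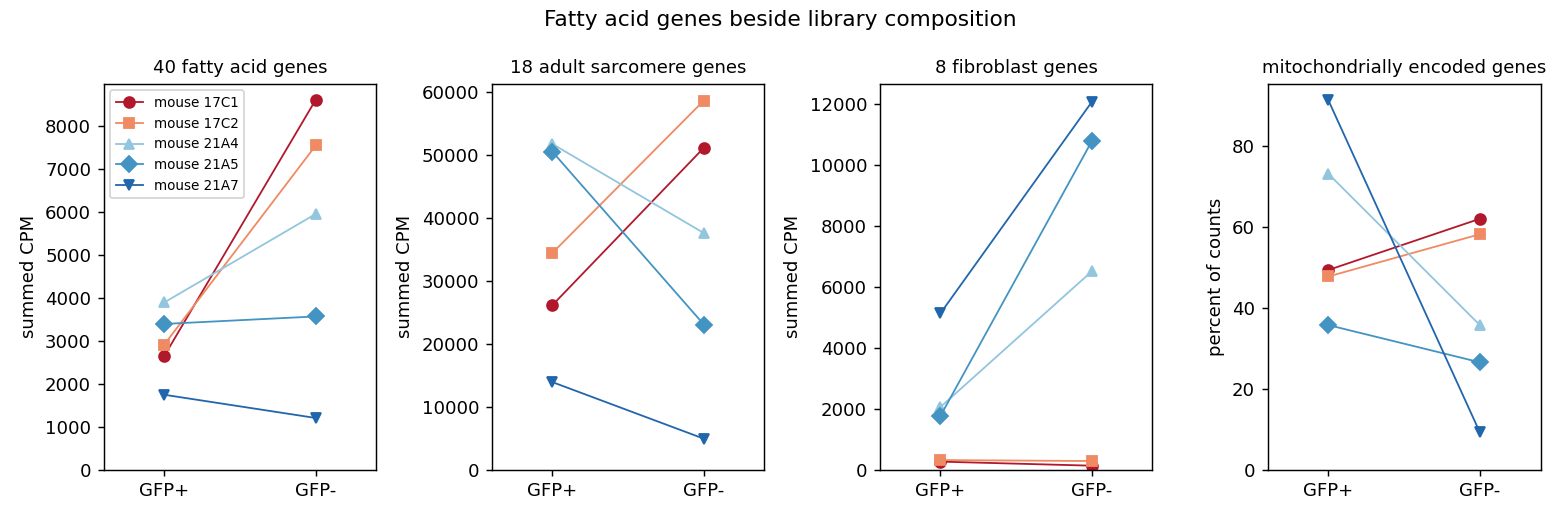
Summed CPM of the 40 fatty acid genes, of 18 adult sarcomere genes and of 8 fibroblast genes, and the percent of counts from mitochondrially encoded genes, with GFP+ left of GFP- and lines joining the libraries of 1 mouse. The fatty acid sum lay between 1741 and 3888 CPM in GFP+ libraries and between 1201 and 8604 CPM in GFP- libraries, where 21A7 was the lowest.

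The summed level of the 40 genes was 2646, 2909, 3888, 3388 and 1741 CPM in GFP+ libraries, against 8604, 7541, 5947, 3562 and 1201 CPM in GFP- libraries. The spread lay in the GFP- libraries. Across these, the mice with the higher fatty acid sums in CPM, 17C1 and 17C2, were also those with the higher sarcomere sums and the lower fibroblast sums. As a share of counts outside mitochondrially encoded genes, the 40 genes ranked otherwise in GFP- libraries. That share was 1.55% (17C1), 1.31% (17C2), 1.84% (21A4), 1.09% (21A5) and 0.434% (21A7). With a non-myocyte score as a covariate (the level of mural, endothelial, macrophage and fibroblast genes), 0 of the 40 and 0 of all genes passed in edgeR. On that fit 23 members had an unadjusted p under 0.05, all lower in GFP+ cells. So had 2348 of all 12115 genes, in either direction. The median was −1.12 for the members and 0.01 for all genes.

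Of the members, 8 carried the nuclear receptor core site AGGTCA within the window of 250 bases before to 50 bases after the start site. Promoters of 32 of the 40 members were found in RefSeq's table for GRCm38.p6. The site, sought on both strands, was in a promoter of 25% of these 32 genes and in 16.3% of all 32851 promoters. The former is a share of genes and the latter a share of promoters. The windows around it are printed for Cpt1a, Plin5 and Ucp3, the genes with the site that were lower in GFP+ cells at an unadjusted p under 0.05. Capitals mark the site, which reads TGACCT where it lies on the opposite strand.
Cpt1a, chr19:3323177-3323242, plus strand: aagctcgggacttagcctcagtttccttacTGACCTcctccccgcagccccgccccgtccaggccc
Plin5, chr17:56117683-56117748, minus strand: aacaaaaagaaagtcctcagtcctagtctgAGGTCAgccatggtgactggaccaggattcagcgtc
Ucp3, chr7:100472812-100472877, plus strand: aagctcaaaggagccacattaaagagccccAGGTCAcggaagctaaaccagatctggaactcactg
Ucp3, chr7:100472917-100472982, plus strand: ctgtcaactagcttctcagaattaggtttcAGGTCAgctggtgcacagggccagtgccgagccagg
For Ucp3 both of its upstream sites are shown. The longer letters TCAAGGTCA, which contain the core site and are known as the extended site of ERR receptors, were in 0 of the 32 and in 0.423% of all promoters. The direct repeat AGGTCANAGGTCA, as PPAR binds it, was in 0 of the 32 and in 0.0396% of all. These are matches of letters in 1 short window, and binding was not measured.

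Of 81 further genes of the pathway in the table, 72 were tested. Over all 5 mice 1 was higher in GFP+ cells and 0 were lower, with 5 lower and 3 higher at an unadjusted p under 0.05 (backgrounds 7.59% and 7.74%). The gene that passed was Acot9, an acyl-CoA thioesterase of mitochondria. It stood at 24.5 ± 10.8 CPM in GFP+ and 7.09 ± 1.10 CPM in GFP- libraries (SD, n = 5) and rose by 1.68 ± 0.27 (SE, adjusted p = 0.0376). Acot9 rose in the 17C mice by 2.19 ± 0.37 and in the 21A mice by 1.35 ± 0.26 (adjusted p = 1.85e-07 and 0.0211), the opposite sign to Acot1 and Acot2. The call over all 5 mice was lost without the mouse block (adjusted p = 0.0777), without 21A4 (0.231), 21A5 (0.163) or 17C2 (0.143), and the 21A value was −0.65 with library totals as the scale, where the median of all genes was −2.02. In the 17C mice 20 of the 72 fell and 3 rose (backgrounds 8.1% and 6.55%), and in the 21A mice 1 fell and 1 rose (backgrounds 4.18% and 2.72%). Those that rose in the 17C mice were Acot9, Acsl4 and Acsl5, and the one that fell in the 21A mice was Fabp5, a fatty acid binding protein. Acsl4, Acsl5 and Fabp5 were named after their values were seen. The median of the 72 genes was −0.41 for the 17C mice and 0.15 for the 21A mice.

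Among uptake genes, Got2, an aminotransferase that also binds fatty acids at the cell membrane, changed by −1.64 ± 0.28 in the 17C mice (adjusted p = 2.39e-07). Vldlr, a receptor for triglyceride-rich lipoproteins, changed by −1.22 ± 0.27 there (adjusted p = 0.000164). Acss1, the mitochondrial acetyl-CoA synthetase, changed by −2.03 ± 0.29 (adjusted p = 3.15e-10). Slc25a20, the carrier that exchanges acylcarnitine for carnitine, fell in the 17C mice with −1.26 ± 0.29 (adjusted p = 0.000314), as did 4 of the 5 members of that step. Acad11 and Acat1, a dehydrogenase and an acetoacetyl-CoA thiolase, changed by −1.40 ± 0.30 and −1.30 ± 0.28 (adjusted p = 8.03e-05 and 9.42e-05). In the peroxisome, Phyh, which starts the breakdown of phytanic acid, changed by −1.24 ± 0.28 (adjusted p = 0.000251). Lpin1, a phosphatidate phosphatase, and Fitm2, which helps droplets to form, changed by −2.25 ± 0.29 and −2.13 ± 0.30 (adjusted p = 2.04e-12 and 6.3e-11). Pdp2 and Pdhb, a phosphatase and a subunit of pyruvate dehydrogenase, changed by −2.47 ± 0.43 and −1.02 ± 0.27 (adjusted p = 6.09e-07 and 0.00244). None of these 11 genes passed in the 21A mice, and the effect differed between the series for Got2, Vldlr, Acss1, Acad11, Lpin1, Fitm2 and Pdp2.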

How the data were processed

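RNA of GFP+ and GFP- heart cells of 5 mice was sequenced, 1 library of each per mouse. Per the labels' protocols, 1 ng of RNA entered a SMARTer amplification and the cDNA a Nextera XT preparation, whose reads keep no strand. Nothing names molecular identifiers, so counts are not independent molecules. The authors deposited 1 table of raw counts per gene. STAR 2.7.9a, fastp 0.23.1, featureCounts, Subread 2.0.1 and the build GRCm39 are listed in the submitters' processing notes. Which annotation and strand setting were used, and how multi-mapping reads were treated, is not given in the sources used here.

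The test was edgeR's quasi-likelihood F-test (version 4.0.16, R 4.3.3; two-sided, mouse as a block, TMM, filterByExpr, Benjamini-Hochberg over 12115 genes, threshold 0.05), over all 5 mice, within the 17C and the 21A mice, and for the interaction of cell group and series. The SE is the size of a log2 fold change over the root of its F value. Log2 CPM values use a prior count of 2. Libraries were grouped and paired by the animal identifier in their titles. As a check, the pair of each mouse deviated from the group means with a correlation over genes of 0.292 (17C1), 0.397 (17C2), 0.161 (21A4), 0.0741 (21A5) and 0.637 (21A7). By this measure 4 of 5 GFP+ libraries and 2 of 5 GFP- libraries were most like the other library of their own mouse, so the pairing rests on the titles. No 2 libraries held identical values. Of 400 member values (40 genes in 10 libraries), 4 were under 10 counts, and those in Acot1 and Lipe are the least precise.

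The 40 genes, their steps and the other lists were chosen with earlier results of these data known, so no list was tested and each is described by counts and a median. Values in every library are given for up to 3 members of each step with the smallest p over all 5 mice and for members past the threshold in a fit or in the interaction, 29 in all. Of the other lists, up to 2 genes past the threshold in a fit are named, and 1 gene that the rule picks is not reported here. The alternatives were no replicate block, DESeq2 1.42.0, limma 3.58.1 voom with quality weights, other scalings and filters, a dispersion shared by all libraries, a non-myocyte score as a covariate, and each mouse left out. The fits were tested on simulated counts. Exon overlap, shared 50-base windows and levels per kilobase come from an annotation of the earlier build GRCm38 and promoters from RefSeq's GRCm38.p6 table, matched by symbol, with no coordinates converted.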

Additional observations from a re-analysis of the deposited data

Results flagged for a closer look

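In 15 of 120 tests, run over the libraries of each group and over the mouse differences of each gene (Dixon's test at the 95% level, which chance passes in about 1 of 20 groups), 1 value stood apart, and each time it was the level in a library of mouse 21A7. In GFP+ cells this mouse was the lowest for Fabp3 (186 CPM), Acadl (77.8 CPM), Acadm (53.8 CPM), Acaa2 (51.0 CPM), Hadhb (37.6 CPM), Etfdh (28.5 CPM) and Etfa (27.2 CPM). The same held for Decr1 (25.5 CPM), Acot13 (21.8 CPM), Slc27a1 (13.2 CPM), Eci1 (8.54 CPM), Dgat2 (8.004 CPM) and Plin5 (2.24 CPM). In GFP- cells 21A7 was the lowest for Lpl (142 CPM) and Plin4 (4.83 CPM). The GFP+ library of this mouse had 91.2% of its counts in mitochondrially encoded genes, and its GFP- library had the lowest sarcomere sum, 4916 CPM. The part of either in these values was not tested. The 120 tests share the same 10 libraries and are not independent, and no share over all genes was determined. The count of 15 is therefore not shown to be particular to these genes.

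The change between GFP+ and GFP- cells differed between the 17C and the 21A mice for 13 members by the interaction test. Its log2 value, 17C minus 21A, was −2.04 for Acsl1, −1.61 for Acot13, −2.09 for Crat, −2.33 for Acacb and −1.53 for Acadvl. It was −2.08 for Hadha, −1.71 for Hadh, −1.98 for Ech1 and −1.80 for Eci1. For the droplet genes it was −1.57 for Plin4 and −2.30 for Pnpla2, and for the kinases −2.72 for Pdk2 and −2.29 for Pdk4. The series differ in the wording of their titles, in fibroblast, macrophage and endothelial transcripts, in the sarcomere genes and in the mitochondrial share, which was lower in GFP+ than in GFP- cells in both 17C mice and higher in all 3 of the 21A mice. These cannot be told apart from the mice themselves.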

How the results depend on the processing

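Over all 5 mice the count of members called lower, 0 in the fit with the mouse block, was 6 with DESeq2, 6 with voom, 6 with no filter, 1 with library totals and 1 with a filter of 5 CPM in 5 libraries, and voom called 1 member higher. These fits called 436, 586, 458 (of 26141), 28 and 32 (of 6884) of all genes lower, against 21 in the fit with the block. Without the replicate block, with DESeq2 size factors or with mitochondrial genes removed the count of members was 0, where 0, 22 and 20 of all genes were lower. With any 1 mouse left out it was 0, where 0 to 74 of all genes were lower. The count at an unadjusted p under 0.05 was 4 to 25 with a mouse left out, where 1183 to 2059 of all genes had such a p in either direction. Directions that turned were those of Angptl4 (0.19 with the non-myocyte score), Acot13 (−0.075 without the block, −0.75 with library totals, −0.15 with the score) and Dgat1 (−0.048 with library totals). Plin4 turned to −0.93 with library totals, −0.060 when scaled to sarcomere genes and −0.43 with the score. With 1 mouse left out, Plin4 lay between −0.038 (without 21A7) and 0.50 (without 17C1) and Pnpla2 between −0.75 and 0.15, and Pdk2 between −0.87 and 0.19 (both positive without 17C1). Acot9 kept a positive fold change over all 5 mice, and turned in the 21A mice with library totals (−0.65, all genes −2.02). In the 17C mice the 32 lower became 30 without the block, 27 with library totals, 26 with a shared dispersion and 22 when scaled to sarcomere genes, which put 1 higher (Dgat1) and turned Acadl (0.079), Etfa (0.013) and Hadhb (0.086). All genes called lower there numbered 981 with the block and 640, 638, 655 and 213 in these fits. Leaving out a 17C mouse leaves no residual degrees of freedom and was not run there. In the 21A mice the 2 lower became 0 without the block, with library totals or with a shared dispersion, 7 with voom (and 1 higher, Acot13) and 26 when scaled to sarcomere genes. All genes called lower there numbered 507 with the block and 0, 1, 249, 863 and 4587 in these fits. With a mouse left out the members lower were 0 without 21A4, 0 without 21A5 and 8 without 21A7, where 0, 18 and 1004 of all genes were lower. The median of the members minus that of all genes, −0.10, lay between −0.42 without 21A7 and 0.24 without 21A4. The 13 members that differed between the series became 0 without the block, 0 with library totals and 0 when scaled to sarcomere genes (3 higher), and 17 with voom. All genes lower in this difference numbered 433 with the block and 0, 0, 6 and 605 in these fits, and 4878 were higher when scaled to sarcomere genes. With a 21A mouse left out the members lower were 8 without 21A4, 0 without 21A5 and 8 without 21A7, where 158, 1 and 228 of all genes were lower. Leaving out 17C1 or 17C2 leaves 1 mouse of that series, and the median difference of the members was −1.30 or −1.69. With library totals the difference turned for Acsl1 (0.16), Acot13 (0.57), Crat (0.11), Acadvl (0.69), Hadha (0.13), Hadh (0.48), Ech1 (0.21), Eci1 (0.38) and Plin4 (0.63). When scaled to sarcomere genes it turned for Acot13 (0.27), Acadvl (0.37), Hadh (0.18), Eci1 (0.077) and Plin4 (0.32). Library totals moved the median of all genes to −1.15 over all 5 mice and to 2.14 in the difference, and sarcomere scaling moved the median in the difference to 1.89. These shifts move all genes alike, and against the median gene the members stood at −1.42 with library totals and −1.47 with TMM, so the turned signs follow from the scale. The 26 members lower than the sarcomere genes in every mouse were 17 against cardiomyocyte markers and 12 against the TCA cycle, yardsticks chosen after seeing the data, and 26 to 32 without 1 mouse. The cause of the other changes was not tested.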

Other observations

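Levels per kilobase of exon, which allow genes to be compared with each other, put Fabp3, Acadl, Acaa2, Ech1 and Acot13 at the top of the 40 in GFP- cells. Acadl stood at 108 CPM per kb in GFP+ and 142 in GFP- cells, Acaa2 at 59.7 and 122, Ech1 at 31.96 and 96.71, and Acot13 at 91.7 and 96.7.

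The E-box letters CACGTG were in a promoter of 12.5% of the 32 members and in 7.15% of all promoters of the same length. For the GC box GGGCGG these shares were 65.6% and 35.7%, both sought on both strands. The 4 members with an E-box were Slc27a1, Plin2, Lipe and Pdk2. These shares, of genes for the members and of promoters for all, describe 1 short window and carry no test.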
